A study of Mus musculus with 16 samples.

Results

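Fkbp5, Zbtb16, Klf9, Tsc22d3, Sgk1, Dusp1, Errfi1 and Cebpd are mouse genes that the glucocorticoid receptor is known to switch on, several of them also under the androgen receptor in prostate cells. They were chosen by name and found by symbol: 8 of the 55414 gene IDs in the count table. All 8 passed the filter on low counts, which left 18946 genes for testing.

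RNA was sequenced from 16 subcutaneous tumours grown from the B6MyC-CaP line, which comes from a prostate cancer of the Hi-MYC mouse, so that all groups share its MYC transgene. The hosts were male C57BL/6 mice, 6 weeks old when the cells were implanted. Each of the 4 groups holds 4 tumours. In ADF+ENZ, mice were on alternate-day fasting (24 h without food, then 24 h with it) and received 20 mg/kg enzalutamide by gavage daily. ADF mice had the fasting schedule without the drug, ENZ mice had the drug with free access to food, and Vehicle mice ate freely without the drug. Enzalutamide blocks the androgen receptor. All tumours come from a single cell line grown under the skin, and the sources used here do not give the part of the fasting cycle in which they were collected. No label says that every tumour had its own host, so p-values measure the spread between these libraries, which may be technical.

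The androgen receptor and the glucocorticoid receptor are related hormone-activated transcription factors that bind the same palindromic DNA element, so that they share many target genes. In prostate cancer cells the glucocorticoid receptor is known to be able to induce part of the androgen receptor's targets. Both are held ready by the HSP90 chaperone, and FKBP51, the product of Fkbp5, is a cochaperone that lowers the hormone binding of the glucocorticoid receptor and so closes a feedback loop. Zbtb16 and Klf9 encode transcription factors with zinc fingers, Tsc22d3 encodes GILZ, an anti-inflammatory mediator of glucocorticoids, and Cebpd encodes a leucine-zipper transcription factor. Sgk1 encodes a kinase related to AKT, Dusp1 a phosphatase that switches off MAP kinases, and Errfi1 an inhibitor of the EGF receptor.

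Libraries held 10072489 to 25505655 gene counts. Reads in no annotated feature made up 32.9% ± 2.73 of reads in ADF and 25.9% ± 2.25 in Vehicle (SD, n = 4 each; exact two-sided permutation p = 0.0286, the smallest that 70 assignments allow, adjusted p = 0.0357 over 5 library measures), so every comparison with ADF sets libraries of different make-up side by side. At the same exact and adjusted p, reads that did not map uniquely made up 4.70% in ADF and 7.44% in Vehicle, ambiguous reads 2.85% and 4.002%, and unaligned reads 10.7% and 8.24%. Ambiguous reads made up 3.63% in ADF+ENZ and 4.47% in ENZ (exact two-sided permutation p = 0.0286, adjusted p = 0.143). Unaligned reads made up 12.6% in ADF+ENZ and 8.24% in Vehicle, at the same exact and adjusted p. Levels are given as CPM, counts brought to the same library total with TMM scaling between libraries. Within the ADF group, replicate 1 had the highest CPM of its group for 8 of 8 genes, whereas it was the highest for 28.9% of all genes tested. ENZ replicate 1 was the highest of its group for 6 of 8 genes and for 32.5% of all genes. ADF+ENZ replicate 3 was the highest of its group for 5 of 8 genes and for 30.3% of all genes.

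By GENCODE M21 on build GRCm38, an older build than the mm39 named in the submitters' processing notes, Fkbp5 (ENSMUSG00000024222) lies at chr17:28399094-28517527 on the - strand, Zbtb16 (ENSMUSG00000066687) at chr9:48654297-48836222 on the - strand, Klf9 (ENSMUSG00000033863) at chr19:23141226-23168134 on the + strand and Tsc22d3 (ENSMUSG00000031431) at chrX:140539528-140600659 on the - strand. Sgk1 (ENSMUSG00000019970) lies at chr10:21882184-21999903 on the + strand, Dusp1 (ENSMUSG00000024190) at chr17:26505590-26562128 on the - strand, Errfi1 (ENSMUSG00000028967) at chr4:150853919-150868892 on the + strand and Cebpd (ENSMUSG00000071637) at chr16:15887286-15891031 on the + strand.

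The 250 bases before each annotated start were read for motifs from RefSeq, on build GRCm38.p6. Windows were found for 6 of the 8 genes, 14 windows in all; Zbtb16 and Cebpd had no entry. On both strands, the full steroid response element (AGAACA, any 3 bases, TGTTCT), the hexamer AGAACA alone, which forms either end of it, the cAMP response element TGACGTCA and the AP-1 site TGANTCA were searched. The full element occurred in 1 window, at -189 from an Sgk1 start, and in 3 of all 32851 windows (0.00913%). The hexamer occurred in 4 windows of Sgk1 and Tsc22d3 and in 16.1% of all windows. The cAMP response element occurred at -143 of Dusp1 and -51 of Errfi1 and in 1.55% of all windows, and the AP-1 site at -89 of Klf9 and in 6.75%. The first 30 bases after the Errfi1 starts were found in no Errfi1 transcript of GENCODE M21, so the position of its match rests on the RefSeq start alone. The Fkbp5 window held none of the 4. A match describes letters only, and these windows are short, so the lack of a match says nothing of binding elsewhere. The windows of Sgk1, Dusp1 and Errfi1 are shown because they hold the motifs that a receptor and CREB-type factors read, and that of Fkbp5 because its transcript is described most closely here. They lie at chr10:21993640-21993889 (+ strand) for Sgk1, chr17:26508473-26508722 (- strand) for Dusp1, chr4:150854820-150855069 (+ strand) for Errfi1 and chr17:28486150-28486399 (- strand) for Fkbp5, and are written 5′ to 3′ with matches in capitals.
Sgk1: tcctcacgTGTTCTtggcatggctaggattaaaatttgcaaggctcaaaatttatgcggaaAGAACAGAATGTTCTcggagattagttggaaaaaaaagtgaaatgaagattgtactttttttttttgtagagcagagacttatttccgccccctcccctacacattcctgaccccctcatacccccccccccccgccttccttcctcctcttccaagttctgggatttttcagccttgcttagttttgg
Dusp1: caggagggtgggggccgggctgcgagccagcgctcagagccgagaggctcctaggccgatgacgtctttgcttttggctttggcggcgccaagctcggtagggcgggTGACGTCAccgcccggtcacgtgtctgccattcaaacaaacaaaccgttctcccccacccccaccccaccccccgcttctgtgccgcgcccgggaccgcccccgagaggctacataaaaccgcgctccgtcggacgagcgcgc
Errfi1: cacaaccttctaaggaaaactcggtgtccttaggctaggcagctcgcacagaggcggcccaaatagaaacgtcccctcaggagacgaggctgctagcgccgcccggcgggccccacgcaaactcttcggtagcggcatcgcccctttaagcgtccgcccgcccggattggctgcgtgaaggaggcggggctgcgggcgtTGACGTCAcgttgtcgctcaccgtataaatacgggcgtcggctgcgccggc
Fkbp5: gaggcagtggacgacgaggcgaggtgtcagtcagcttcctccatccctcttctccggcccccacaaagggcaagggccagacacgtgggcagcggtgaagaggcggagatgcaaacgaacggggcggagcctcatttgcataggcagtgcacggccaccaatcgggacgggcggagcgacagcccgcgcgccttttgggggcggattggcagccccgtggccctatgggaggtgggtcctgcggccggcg

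With enzalutamide alone, Fkbp5, Zbtb16 and Cebpd fell and the other 5 genes did not pass; with fasting added to enzalutamide, Fkbp5, Zbtb16, Klf9 and Dusp1 rose relative to enzalutamide alone. A gene passed where the adjusted p of edgeR's quasi-likelihood test, corrected by Benjamini-Hochberg over all 18946 genes, was under 0.05. In ENZ against Vehicle 3 of 8 genes fell and 0 rose, where 3.62% of all genes fell and 1.81% rose (5.43% in either direction). In ADF against Vehicle 2 of 8 fell (4.96% of all genes) and 0 rose (4.05%), against 9.01% of all genes in either direction. Relative to Vehicle, 1 gene in ADF+ENZ rose (5.97% of all genes) and 1 fell (6.53%), against 12.5% in either direction. Relative to ENZ, 4 of 8 in ADF+ENZ rose and 0 fell, where 0.813% of all genes rose and 0.274% fell (1.09% in either direction). Relative to ADF, 2 of 8 in ADF+ENZ rose (8.72% of all genes) and 0 fell (7.54%), against 16.3% in either direction. The same shares of all genes are the background for the counts of other lists below.

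The interaction, which takes the change between ADF and Vehicle from the change between ADF+ENZ and ENZ, was positive and past the threshold for 3 of 8 genes, Fkbp5, Zbtb16 and Klf9, where 2.18% of all genes were, and negative for none of the 8 (0.918% of all genes; 3.1% in either direction). The median log2 change of the 8 genes was -0.65 in ENZ against Vehicle, -0.43 in ADF against Vehicle, -0.07 in ADF+ENZ against Vehicle, 0.82 in ADF+ENZ against ENZ, 0.43 in ADF+ENZ against ADF and 1.08 for the interaction, while the median of all genes lay between -0.02 and 0.01 in each. A further fit had the share of unassigned reads (in no annotated feature), which differs between ADF and Vehicle, as a covariate. In it 0 of all 18946 genes, and so 0 of the 8, passed edgeR's test in the interaction or in ADF+ENZ against ADF. At an unadjusted p under 0.05 there were 1014 (5.35%) and 589 (3.11%), where the main fit had 4027 and 6226. Such shares are near or below what this threshold passes where nothing differs. However, the covariate was 30.3% to 36.7% in ADF libraries and 21.2% to 27.9% in all others, so it nearly stands for the ADF group. The SE of the Fkbp5 interaction was 0.424 with it and 0.283 in the main fit. That fit therefore cannot tell a lack of change from lost precision in these 2. In that fit the interactions of Fkbp5, Zbtb16 and Klf9 were log2 1.32, 2.97 and 0.90 (edgeR adjusted p = 0.873, 0.818 and 0.922), and Klf9 and Dusp1 were 0.44 and 0.32 higher in ADF+ENZ than in ADF (0.9998 for both). In ADF+ENZ against ENZ 0.227% of all genes and 0 of the 8 passed with the covariate, with log2 changes of 0.94 for Fkbp5, 2.13 for Zbtb16, 0.70 for Klf9 and 0.49 for Dusp1 (edgeR adjusted p = 0.0807, 0.0670, 0.115 and 0.128). The comparisons with Vehicle share its 4 libraries, and those of ADF+ENZ share its 4, so the medians are not independent of each other. ENZ against Vehicle and ADF+ENZ against ENZ also share the 4 ENZ libraries, with opposite sign. Low levels in ENZ alone therefore give a fall in the first and a rise in the second, for these genes and for the lists below. In whole tumours, fewer cells that express a gene and less of its RNA per cell cannot be told apart.

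**Figure D1:**
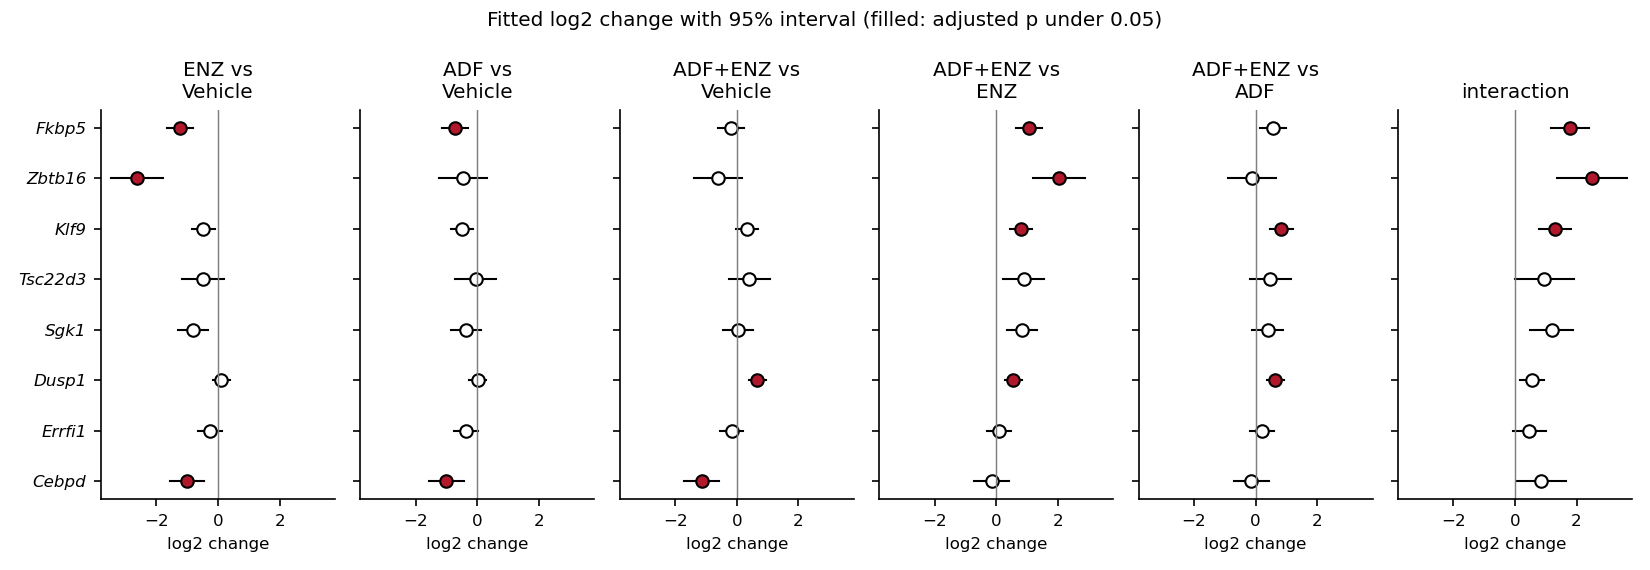
Fitted log2 change (x axis) of the 8 genes (rows) in the 5 comparisons and the interaction, with 95% intervals; filled points passed edgeR's adjusted p under 0.05. Fkbp5 and Zbtb16 lie left of 0 in ENZ against Vehicle, at -1.23 and -2.63, and right of it in ADF+ENZ against ENZ, at 1.06 and 2.03.

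Fkbp5 had its lowest mean under enzalutamide alone and its highest in Vehicle. Its levels were 402, 294, 451 and 273 CPM in ADF+ENZ, 343, 188, 208 and 228 CPM in ADF, 203, 155, 143 and 180.4 CPM in ENZ, and 306, 422, 443 and 429 CPM in Vehicle. Every ENZ library lay below every Vehicle and every ADF+ENZ library, while ADF+ENZ overlapped with Vehicle and with ADF. ENZ also overlapped with ADF, as its highest library had 203 CPM and the lowest ADF library 188 CPM. The means were 355 ± 85.4, 242 ± 69.5, 170.3 ± 26.6 and 400.3 ± 63.4 CPM for ADF+ENZ, ADF, ENZ and Vehicle (SD, n = 4 each). In ENZ it was 0.425 of Vehicle (log2 -1.23, SE 0.202, edgeR adjusted p = 0.00240). In that order of levels, neither ADF+ENZ against Vehicle (log2 -0.17, 95% interval -0.60 to 0.25, edgeR adjusted p = 0.609) nor ADF+ENZ against ADF (0.55, 0.13 to 0.98, 0.0678) passed, and ADF and ENZ were not tested against each other.

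Fkbp5 was lower than in Vehicle in ADF and in ENZ, yet it was 2.08-fold higher in ADF+ENZ than in ENZ (log2 1.06, SE 0.201, edgeR adjusted p = 0.0240). In ADF it was 0.604 of Vehicle (log2 -0.73, SE 0.1995, edgeR adjusted p = 0.0346). With the share of unassigned reads as a covariate this change was -0.37 (edgeR adjusted p = 0.742), in a fit where 0.0317% of all genes passed in ADF against Vehicle. The interaction was 1.79 (95% interval 1.18 to 2.39, edgeR adjusted p = 0.00787). The fall in ENZ passed in all 8 fits with 1 library left out (log2 -1.35 to -1.16), and the interaction in all 16 (1.64 to 2.01). The fall in ADF lost its call without Vehicle replicate 2, 3 or 4 or ADF replicate 2, 3 or 4, with log2 changes of -0.94 to -0.63 over the 8 fits. The rise over ENZ lost it without ENZ replicate 2, 3 or 4 or ADF+ENZ replicate 1 or 3 (0.91 to 1.17 over the 8 fits). Without ADF replicate 1, Fkbp5 also passed in ADF+ENZ against ADF (log2 0.77, edgeR adjusted p = 0.0103), as it did without ADF+ENZ replicate 4 (0.66, 0.0424).

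**Figure D2:**
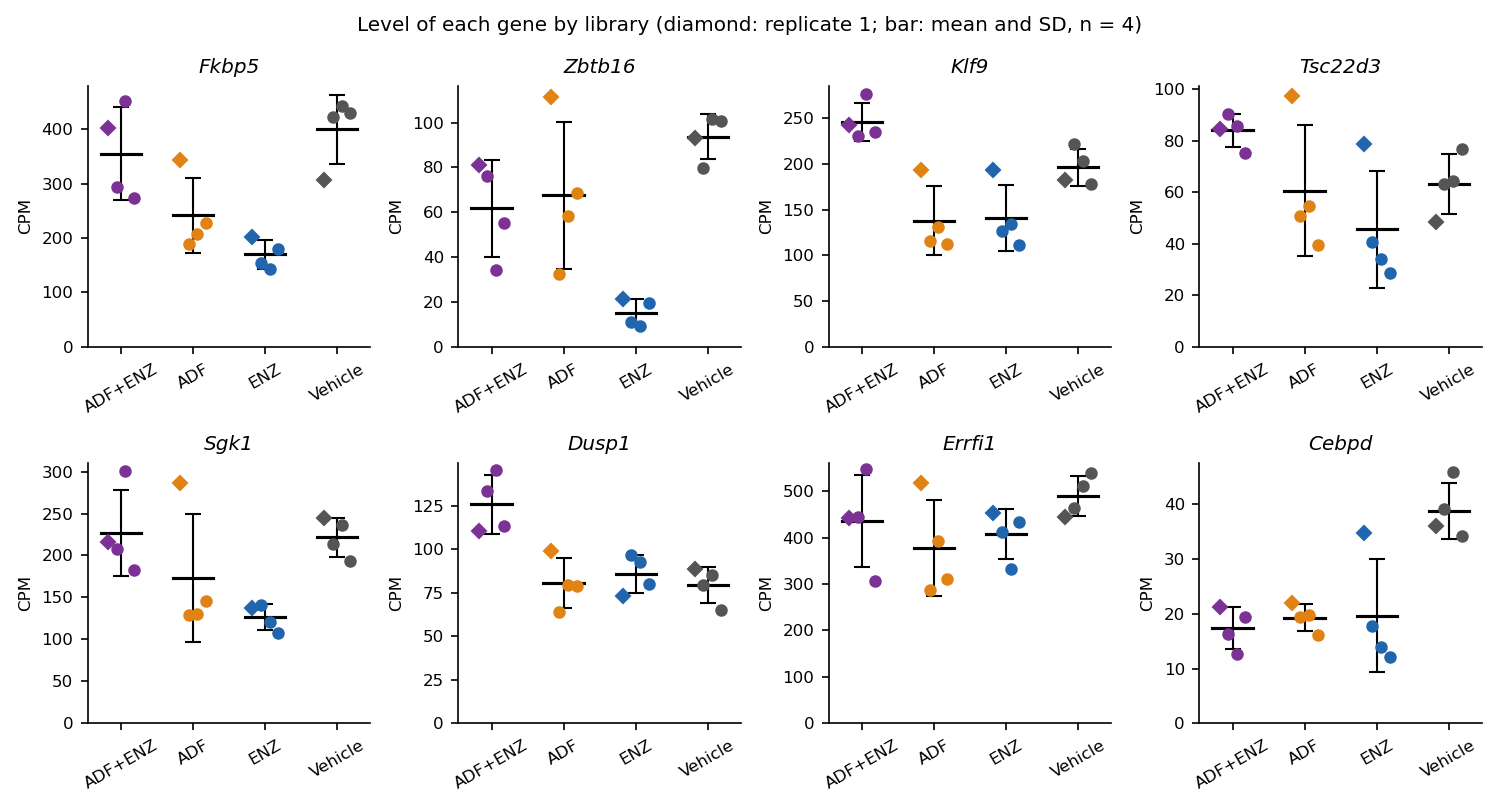
CPM of each gene (y axis, 1 panel a gene) in every library by group; the diamond is replicate 1 of its group, the horizontal line the mean and the error bar the SD (n = 4). For Fkbp5 the ENZ libraries sit between 143 and 203 CPM, below all Vehicle libraries (306 to 443), and for Zbtb16 between 9.07 and 21.2 CPM, below all other groups.

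Zbtb16, which encodes PLZF, had the largest change of the 8 genes. Its levels were 81.2, 76.3, 34.2 and 55.2 CPM in ADF+ENZ, 111, 32.3, 58.2 and 68.7 CPM in ADF, 21.2, 10.9, 9.07 and 19.4 CPM in ENZ, and 93.1, 79.8, 101 and 101 CPM in Vehicle. Every ENZ library lay below every library of the other groups, and the other 3 groups overlapped with each other. The mean was 15.2 ± 6.05 CPM in ENZ and 93.8 ± 10.1 CPM in Vehicle (SD, n = 4), 0.161 of Vehicle (log2 -2.63, SE 0.393, edgeR adjusted p = 0.00223), and this fall passed in all 8 fits with 1 library left out (-2.81 to -2.45). In ADF+ENZ the mean was 61.7 ± 21.5 CPM, 4.09-fold that of ENZ (log2 2.03, SE 0.389, edgeR adjusted p = 0.0306).

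In ADF the mean of Zbtb16 was 67.6 ± 32.8 CPM (SD, n = 4), and neither ADF against Vehicle (log2 -0.48, 95% interval -1.26 to 0.31, edgeR adjusted p = 0.434), ADF+ENZ against Vehicle (-0.60, -1.38 to 0.18, 0.307) nor ADF+ENZ against ADF (-0.12, -0.91 to 0.66, 0.839) passed. The highest ADF library was 3.44 times the lowest, the largest such ratio of any of the 8 genes in any group. The interaction was 2.51 (95% interval 1.36 to 3.65, edgeR adjusted p = 0.0292). The rise over ENZ lost its call without ENZ replicate 2, 3 or 4 or ADF+ENZ replicate 1 or 3 (1.85 to 2.21 over the 8 fits). The interaction lost it without Vehicle replicate 2 or 3, ENZ replicate 2 or 3, ADF replicate 3 or 4 or ADF+ENZ replicate 1 (2.27 to 2.86 over 16 fits).

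Klf9 was highest in ADF+ENZ. Its levels were 242, 231, 276 and 235 CPM in ADF+ENZ, 193, 115, 131 and 112 CPM in ADF, 194, 126, 134 and 111 CPM in ENZ, and 182, 221, 203 and 178 CPM in Vehicle. Every ADF+ENZ library lay above every library of the other groups, and replicate 1 stood well above the other 3 in both ADF and ENZ. The means were 246 ± 20.7, 138 ± 37.7, 141 ± 36.2 and 196 ± 20.0 CPM in ADF+ENZ, ADF, ENZ and Vehicle (SD, n = 4 each).

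Klf9 was 1.78-fold higher in ADF+ENZ than in ADF (log2 0.83, SE 0.174, edgeR adjusted p = 0.00720) and 1.75-fold higher than in ENZ (0.80, SE 0.174, edgeR adjusted p = 0.0374). Against Vehicle it did not pass (log2 0.33, 95% interval -0.04 to 0.69, edgeR adjusted p = 0.230), although the groups did not overlap. Nor did ENZ against Vehicle (-0.48, -0.84 to -0.11, edgeR adjusted p = 0.123) or ADF against Vehicle (-0.51, -0.87 to -0.14, 0.0740). The interaction was 1.31 (95% interval 0.79 to 1.83, edgeR adjusted p = 0.0141) and passed in all 16 fits with 1 library left out (1.21 to 1.52). Klf9 passed in ENZ against Vehicle without ENZ replicate 1 (log2 -0.67, edgeR adjusted p = 0.0164) and in ADF against Vehicle without ADF replicate 1 (-0.71, 0.00914). Without both, a choice made after seeing the data, it also passed in ADF+ENZ against Vehicle (0.33, edgeR adjusted p = 0.0244). Neither library is in that comparison, and its log2 change stayed at 0.33. Its SE was 0.0911 in that fit and 0.172 in the main fit, so this p-value is descriptive only. The rise over ENZ lost its call without ENZ replicate 2, 3 or 4 or ADF+ENZ replicate 1 or 3 (0.70 to 0.99 over 8 fits).

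Tsc22d3 had its highest mean in ADF+ENZ, as Klf9 did, but passed in no comparison. Its levels were 84.7, 90.4, 85.7 and 75.3 CPM in ADF+ENZ, 97.5, 50.8, 54.5 and 39.7 CPM in ADF, 78.8, 40.7, 34.0 and 28.8 CPM in ENZ, and 48.3, 63.3, 64.3 and 76.7 CPM in Vehicle. The ADF+ENZ libraries lay close together, whereas replicate 1 of ADF was 2.46 times the lowest ADF library and replicate 1 of ENZ was 2.74 times the lowest ENZ library. The means were 84.0 ± 6.33, 60.6 ± 25.4, 45.6 ± 22.7 and 63.2 ± 11.6 CPM in ADF+ENZ, ADF, ENZ and Vehicle (SD, n = 4 each). ADF+ENZ against ENZ gave log2 0.89 (95% interval 0.22 to 1.57, edgeR adjusted p = 0.186), and without ENZ replicate 1 it passed (1.29, 0.0473). The interaction was 0.96 (95% interval 0.01 to 1.90, edgeR adjusted p = 0.230). ENZ replicate 1 and ADF replicate 1, each the highest of its group, were also left out together, a choice made after seeing the data. Leaving them out lowers the ENZ and ADF levels by construction, so the p-values of that fit are descriptive only. In it Tsc22d3 fell in ENZ against Vehicle (log2 -0.88, edgeR adjusted p = 0.00280). It was higher in ADF+ENZ than in ADF (0.80, edgeR adjusted p = 0.00343) and had an interaction of 1.67 (0.00140).

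Cebpd was lower than in Vehicle in all 3 treated groups and did not pass in ADF+ENZ against ENZ. Its levels were 21.2, 16.4, 12.6 and 19.4 CPM in ADF+ENZ, 21.9, 19.5, 19.8 and 16.1 CPM in ADF, 34.8, 17.8, 13.9 and 12.1 CPM in ENZ, and 36.0, 39.2, 45.8 and 34.3 CPM in Vehicle. All ADF+ENZ and ADF libraries lay below all Vehicle libraries, while ENZ replicate 1 reached the Vehicle range. The mean was 17.4 ± 3.77 CPM in ADF+ENZ, 19.3 ± 2.39 CPM in ADF, 19.7 ± 10.4 CPM in ENZ and 38.8 ± 5.10 CPM in Vehicle (SD, n = 4 each). It fell in ADF+ENZ (log2 -1.15, SE 0.263, edgeR adjusted p = 0.0123), in ADF (-1.01, SE 0.262, 0.0292) and in ENZ (-1.003, SE 0.262, 0.0386), each against Vehicle. With the covariate the call in ADF was lost, at log2 -1.23 (edgeR adjusted p = 0.387).

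Between ADF+ENZ and ENZ the log2 change of Cebpd was -0.14 (95% interval -0.71 to 0.43, edgeR adjusted p = 0.839), and between ADF+ENZ and ADF -0.14 (-0.71 to 0.43, 0.744). The interaction was 0.86 (edgeR adjusted p = 0.201), and it passed without ENZ replicate 1 (1.28, 0.0108). The fall of Cebpd in ADF+ENZ passed in all 8 fits with 1 library left out (-1.25 to -1.03). That in ENZ passed only without ENZ replicate 1 (log2 -1.41, edgeR adjusted p = 8.66e-05) and lost its call without any of the other 7 libraries compared (-1.06 to -0.82). That in ADF lost it without Vehicle replicate 2 or 3 or ADF replicate 2, 3 or 4 (-1.07 to -0.92 over 8 fits). Cebpd shares 562 bases of annotated exon with Spidr, a DNA repair gene on the other strand, and whether counting used strand is not stated, so the pair's reads cannot be told apart with certainty. Spidr itself fell in ADF+ENZ (log2 -0.63, edgeR adjusted p = 0.00218) and in ADF (-0.37, 0.0475) against Vehicle, but in ENZ its change was -0.12 (0.611); its part in the Cebpd values was not tested.

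Sgk1 had its lowest mean in ENZ, but no comparison passed. Its levels were 216, 208, 301 and 183 CPM in ADF+ENZ, 286, 129, 129.7 and 145 CPM in ADF, 138, 141, 121 and 107 CPM in ENZ, and 245, 213, 236 and 193 CPM in Vehicle. All ENZ libraries lay below all Vehicle and all ADF+ENZ libraries, and in ADF replicate 1 stood far above the other 3. ENZ against Vehicle gave log2 -0.81 (95% interval -1.30 to -0.31, edgeR adjusted p = 0.0588), ADF+ENZ against ENZ 0.84 (0.34 to 1.33, 0.100) and the interaction 1.20 (0.50 to 1.90, 0.0592). Sgk1 fell in ENZ by DESeq2 and by limma-voom with quality weights, with log2 changes of -0.82 (DESeq2 adjusted p = 0.00365) and -0.81 (limma adjusted p = 0.0103). Without ADF replicate 1 it passed in ADF against Vehicle (log2 -0.72, edgeR adjusted p = 0.00773), in ADF+ENZ against ADF (0.75, 0.00392) and in the interaction (1.56, 0.00163). Leaving out ENZ replicate 1 as well was a choice made after seeing the data, so the p-values of that fit are descriptive only. In it Sgk1 also passed in ENZ against Vehicle (log2 -0.85, edgeR adjusted p = 0.00279) and in ADF+ENZ against ENZ (0.88, 0.0139).

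Dusp1 rose in ADF+ENZ against each of the other groups and did not pass under either treatment alone. Its levels were 110.4, 133, 146 and 113 CPM in ADF+ENZ, 98.9, 64.0, 79.4 and 79.1 CPM in ADF, 73.2, 96.6, 92.5 and 79.7 CPM in ENZ, and 88.7, 79.5, 85.3 and 65.1 CPM in Vehicle. All ADF+ENZ libraries lay above all the others, and the other 3 groups overlapped. The mean was 126 ± 16.8 CPM in ADF+ENZ and 79.6 ± 10.4 CPM in Vehicle (SD, n = 4), 1.58-fold higher in ADF+ENZ (log2 0.66, SE 0.131, edgeR adjusted p = 0.00398). On the log2 scale it was 0.65 higher than in ADF (SE 0.1315, edgeR adjusted p = 0.00552) and 0.55 higher than in ENZ (SE 0.131, 0.0468).

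The log2 change of Dusp1 was 0.10 in ENZ against Vehicle (95% interval -0.17 to 0.38, edgeR adjusted p = 0.714), 0.01 in ADF against Vehicle (-0.26 to 0.29, 0.966) and 0.54 for the interaction (0.15 to 0.93, 0.104). The calls against Vehicle and against ADF held in all 8 fits with 1 library left out (0.57 to 0.72 and 0.55 to 0.76). That against ENZ held only without ADF+ENZ replicate 4 and was lost without any of the other 7 libraries (0.47 to 0.62). Without ADF replicate 1 the interaction passed (log2 0.66, edgeR adjusted p = 0.0434). Annotated exons of Dusp1 and of Ergic1, a gene on the other strand, share 11 bases, and Ergic1 rose in ADF+ENZ against ADF (log2 0.43, edgeR adjusted p = 0.0302) but not against Vehicle or ENZ by this test (0.183 and 0.248); its part in the Dusp1 values was not tested.

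Errfi1 was the most abundant of the 8 per length and passed in no comparison. Its levels were 442, 445, 548 and 306 CPM in ADF+ENZ, 518, 287, 393 and 311 CPM in ADF, 454, 411, 332 and 434 CPM in ENZ, and 444, 463, 512 and 539 CPM in Vehicle. All groups overlapped. The widest difference was in ADF against Vehicle (log2 -0.38, 95% interval -0.76 to 0.0037, edgeR adjusted p = 0.194), and it passed without ADF replicate 1 (-0.57, 0.0440). The interaction was 0.47 (95% interval -0.07 to 1.005, edgeR adjusted p = 0.2999), so a change of either sign in this gene was not shown.

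**Figure D3:**
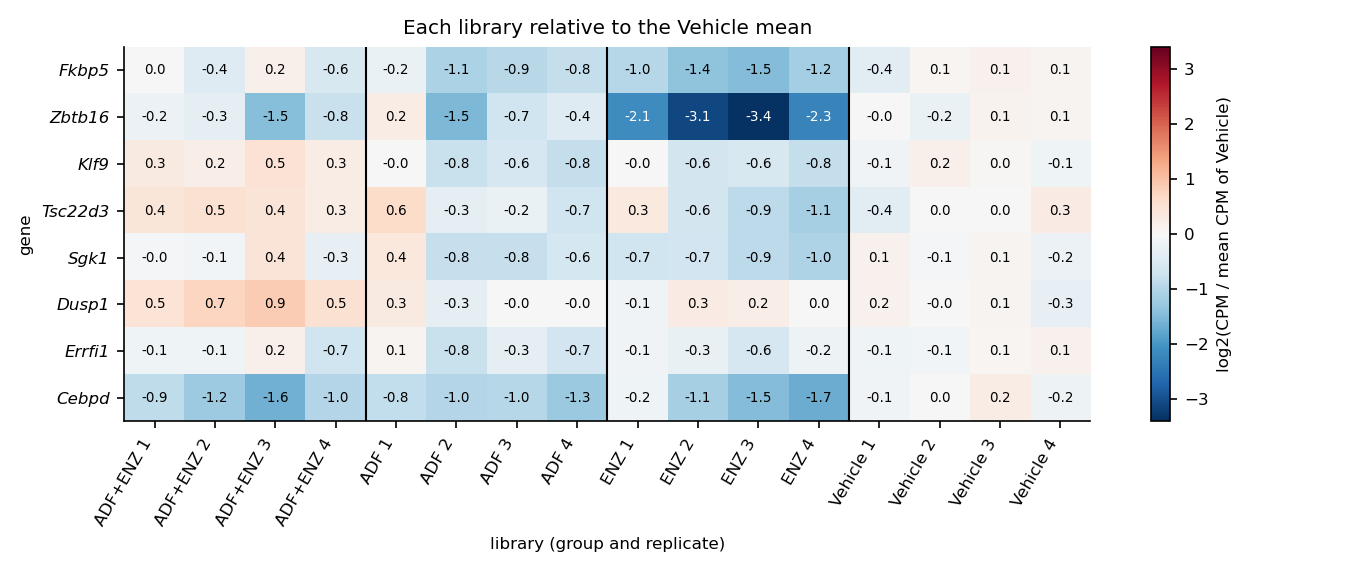
Log2 ratio of each library's CPM to the Vehicle mean of the gene (colour and number), with genes in rows and the 16 libraries in columns by group and replicate. Zbtb16 is between -3.37 and -2.15 in the ENZ libraries, Cebpd is below 0 in all treated libraries, and ADF replicate 1 is the highest ADF library in all 8 rows.

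CPM scaled by exon length (RPKM, CPM per kilobase of annotated exon) allow levels of different genes to be set side by side. In ENZ, RPKM were 114 for Errfi1, 29.3 for Klf9, 25.9 for Sgk1, 25.8 for Dusp1, 17.99 for Fkbp5, 10.5 for Tsc22d3, 5.25 for Cebpd and 2.87 for Zbtb16. In Vehicle they were 137 for Errfi1, 45.3 for Sgk1, 42.3 for Fkbp5, 40.7 for Klf9, 24.1 for Dusp1, 17.8 for Zbtb16, 14.6 for Tsc22d3 and 10.4 for Cebpd. On this scale Zbtb16 had the lowest level of the 8 in ENZ and stood above Tsc22d3 and Cebpd in Vehicle. Exon lengths come from an annotation of build GRCm38, which is not the build named for these data.

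The CPM ranges of the groups were also set against each other without a test. Between ADF+ENZ and ENZ the ranges of 5 of 8 genes lay wholly higher and 0 wholly lower, where 4.96% and 3.71% of all genes did. Between ENZ and Vehicle 0 lay wholly higher (5.44%) and 3 wholly lower (6.54%). Between ADF+ENZ and Vehicle 2 lay wholly higher (8.59%) and 1 wholly lower (8.67%), between ADF+ENZ and ADF 2 wholly higher (10.6%) and 0 wholly lower (9.93%), and between ADF and Vehicle 0 wholly higher (7.95%) and 1 wholly lower (8.55%).

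Nr3c1, the glucocorticoid receptor gene, passed in no comparison. It averaged 147 ± 17.6, 129 ± 15.1, 138 ± 10.4 and 132 ± 4.78 CPM in ADF+ENZ, ADF, ENZ and Vehicle (SD, n = 4 each), with log2 changes of 0.16 in ADF+ENZ against Vehicle (95% interval -0.04 to 0.36, edgeR adjusted p = 0.295) and 0.09 in ADF+ENZ against ENZ (-0.11 to 0.29, 0.688).

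Of the other steroid receptors, Nr3c2, the mineralocorticoid receptor gene, averaged 1.49, 1.94, 1.14 and 1.41 CPM in ADF+ENZ, ADF, ENZ and Vehicle, and no comparison passed. Esr1, an estrogen receptor gene, was lower in ADF+ENZ than in ADF, at 4.16 and 7.92 CPM (log2 -0.89, SE 0.249, edgeR adjusted p = 0.0233). Esr2 and the progesterone receptor gene Pgr stayed below the filter, with 27 to 35 counts of Esr2 in each treated group and 17 in Vehicle and 8 to 13 counts of Pgr in each treated group and 10 in Vehicle. Counts of receptor RNA do not measure receptor protein or its activity.

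Of 14 chaperones of the receptors, few passed. Of these, 3 rose in ADF+ENZ against ADF, Cdc37 (log2 0.32), which encodes a kinase-directed helper of HSP90, Bag1 (0.31), which encodes a nucleotide exchange factor of HSP70, and Hspa8 (0.30), which encodes HSC70, the constitutive HSP70 chaperone. Another 2 fell in ADF against Vehicle, Stip1, the HSP70 to HSP90 adaptor (-0.44), and Dnajb1 (-0.42), and in ADF+ENZ against Vehicle 1 fell, Hspa1b (-0.82). Over all genes 16.3% passed in ADF+ENZ against ADF, 9.01% in ADF against Vehicle and 12.5% in ADF+ENZ against Vehicle. Ppid, which encodes a cyclophilin cochaperone, rose in ENZ against Vehicle (0.38, edgeR adjusted p = 0.0203) and was lower in ADF+ENZ than in ENZ (-0.46, 0.0250), opposite to Fkbp5 in both. In the interaction 0 of the 14 passed (2 positive and 1 negative at an unadjusted p under 0.05).

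Of 14 other FK506-binding protein genes tested, 0 passed edgeR's test in ENZ against Vehicle (1 higher and 1 lower at an unadjusted p under 0.05), in ADF+ENZ against Vehicle (3 higher and 0 lower) or in ADF+ENZ against ENZ (1 higher and 1 lower). In ADF against Vehicle 3 fell, among them Fkbp1a (log2 -0.38) and Fkbp9 (-0.28), and in ADF+ENZ against ADF 3 rose, among them Fkbpl (0.69) and Fkbp8 (0.31). Fkbp1a encodes the target of FK506 and rapamycin. Fkbp4, whose product FKBP52 raises the hormone response of the receptors, averaged 98.5, 93.3, 121 and 98.0 CPM in ADF+ENZ, ADF, ENZ and Vehicle and passed in no comparison. The interaction passed for Fkbp9 (0.44, edgeR adjusted p = 0.0498).

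The relatives of Zbtb16 and Klf9 held further genes with the same direction. Among 16 other BTB zinc finger genes, Bcl6, a transcriptional repressor gene that glucocorticoids also induce, averaged 61.5, 50.9, 39.5 and 56.9 CPM in ADF+ENZ, ADF, ENZ and Vehicle. It fell in ENZ against Vehicle (log2 -0.52, SE 0.141, edgeR adjusted p = 0.0361), rose in ADF+ENZ against ENZ (0.63, SE 0.141, 0.0375) and passed in the interaction (0.79, SE 0.199, 0.0391). Zbtb7a also fell in ENZ (-0.27), Zbtb7b (-0.50) and Zbtb38 (-0.29) fell in ADF against Vehicle, and Zbtb7b, Zbtb38 and Zbtb17 rose in ADF+ENZ against ADF (0.38, 0.34 and 0.35). Bcl6b, a close homologue of Bcl6, moved the other way, lower in ADF+ENZ than in ENZ (-1.12, edgeR adjusted p = 0.0229) and than in Vehicle (-1.001, 0.00625).

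Of 13 other Kruppel-like factor genes tested, 5 fell in ENZ against Vehicle and 0 rose: Klf5 (log2 -0.97), Klf4 (-0.66), Klf13 (-0.53), Klf6 (-0.38) and Klf7 (-0.32). Klf13, of the same subgroup as Klf9, had 168, 149, 162 and 157 CPM in ADF+ENZ, 182, 145, 138 and 131 CPM in ADF, 122, 103, 104 and 102 CPM in ENZ, and 141, 171, 148 and 161 CPM in Vehicle. All its ENZ libraries lay below those of every other group. It fell in ENZ (SE 0.0981, edgeR adjusted p = 0.00367), rose in ADF+ENZ against ENZ (0.56, SE 0.0983, 0.0120), and passed in the interaction (0.62, 0.0245) together with Klf4 (1.16, 0.0230). Klf5 stayed low with fasting, at -0.89 in ADF and -1.09 in ADF+ENZ against Vehicle.

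Few relatives of Tsc22d3 and Sgk1 passed. Of the 3 other TSC22 family genes, Tsc22d1 rose in ADF+ENZ against Vehicle (log2 0.32, edgeR adjusted p = 0.0246) and against ADF (0.32, 0.0237). Among 5 related kinases Akt2 fell in ADF (-0.36) and in ADF+ENZ (-0.26) against Vehicle, and Sgk2 and Sgk3 passed in no comparison. Of 5 tested substrates and targets of SGK1, Ndrg1 fell in ENZ, ADF and ADF+ENZ against Vehicle (-1.03, -1.01 and -0.84) and Nedd4l, a ubiquitin ligase gene, in ENZ and ADF+ENZ (-0.43 and -0.47). Both encode proteins that SGK1 phosphorylates, and Ndrg1 is also induced by hypoxia.

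Of 9 other MAP kinase phosphatase genes, 3 passed in some comparison. Dusp6, the ERK phosphatase, fell in ADF (log2 -0.37) and in ADF+ENZ (-0.44) against Vehicle, and Dusp4 (0.51) and Dusp10 (0.57) rose in ADF+ENZ against ADF. In the ERBB family, which the product of Errfi1 restrains, 8 of 11 genes were tested. Tgfa, a ligand gene, fell in ADF (-1.44) and ADF+ENZ (-1.52) against Vehicle, Hbegf (-0.81) and Erbb2 (-0.38) fell in ADF+ENZ against Vehicle, Erbb2 (-0.39) and Egfr (-0.53) in ADF+ENZ against ADF, and Nrg1 rose in ADF (0.90). Of 5 tested C/EBP genes beside Cebpd, Cebpg fell in ADF (-0.37) and ADF+ENZ (-0.33) against Vehicle and Cebpz rose in ADF+ENZ against ADF (0.32).

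Of 33 other tested genes that glucocorticoids are known to induce, 10 fell and 0 rose in ENZ against Vehicle by edgeR's test (3.62% and 1.81% of all genes). At an unadjusted p under 0.05, 15 were lower and 0 higher, and the median log2 change was -0.50. The 10 that fell included Anxa1, which encodes the anti-inflammatory annexin A1 (-1.004), the metallothionein gene Mt1 (-0.77), the lipid phosphatase gene Lpin1 (-0.75) and Lcn2 (-2.39). With fasting added, 4 rose and 0 fell in ADF+ENZ against ENZ, with a median of 0.36: Mertk, a phagocytosis receptor gene (0.71), Fbxo32, a ubiquitin ligase gene of muscle wasting (0.75), Glul, glutamine synthetase (0.50), and Bcl6. In ADF against Vehicle 4 fell (median -0.16), Mt1 (-0.98), Tgm2 (-0.58), Lcn2 (-2.66) and Sdc4 (-0.58).

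Of the 33, 3 rose and 9 fell in ADF+ENZ against Vehicle (median 0.03). Per1, a clock gene that glucocorticoids induce directly, had 166, 119, 197 and 147 CPM in ADF+ENZ, 128, 77.1, 68.7 and 51.3 CPM in ADF, 110.04, 79.6, 46.0 and 36.7 CPM in ENZ, and 71.4, 69.7, 73.2 and 66.7 CPM in Vehicle. All ADF+ENZ libraries lay above those of ENZ and Vehicle, and replicate 1 was again the highest in ADF and in ENZ. In ADF+ENZ against ENZ, Per1 did not pass. Per1 rose in ADF+ENZ against Vehicle (log2 1.16, SE 0.330, edgeR adjusted p = 0.0366), with Mertk (0.52) and Fbxo32 (0.47). Lcn2 (-3.48), Anxa1 (-0.81), Tgm2 (-0.79) and Mt1 (-0.57) were among those that fell. The interaction passed for Mt1 (1.18), Sdc4 (0.95) and Bcl6 (0.79), all positive, with a median of 0.50 over the 33, and 1 gene, Mt1, rose in ADF+ENZ against ADF (0.41).

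Of 23 tested other androgen-induced genes, 7 fell and 1 rose in ENZ against Vehicle, with a median of -0.31, and the same numbers were found in ADF+ENZ against Vehicle (-0.28). In ENZ, Ndrg1 (log2 -1.03), the claudin gene Cldn10 (-2.36), the metalloreductase gene Steap2 (-0.62) and Pdlim5 (-0.51) fell and Pmepa1 rose (1.05). Herc3 alone rose in ADF+ENZ against ENZ (0.77, edgeR adjusted p = 0.0374), and the list's median there was -0.07. In ADF against Vehicle 4 fell, among them Acsl3 (-0.97), and in ADF+ENZ against ADF 1 rose and 4 fell, among them Sord (-0.80) and Abcc4 (-0.40). The interaction passed for Ndrg1 (1.20), Herc3 (1.04) and Pdlim5 (0.56). Pbsn and Azgp1, genes of prostate secretions, had 0 counts in every group.

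**Figure D4:**
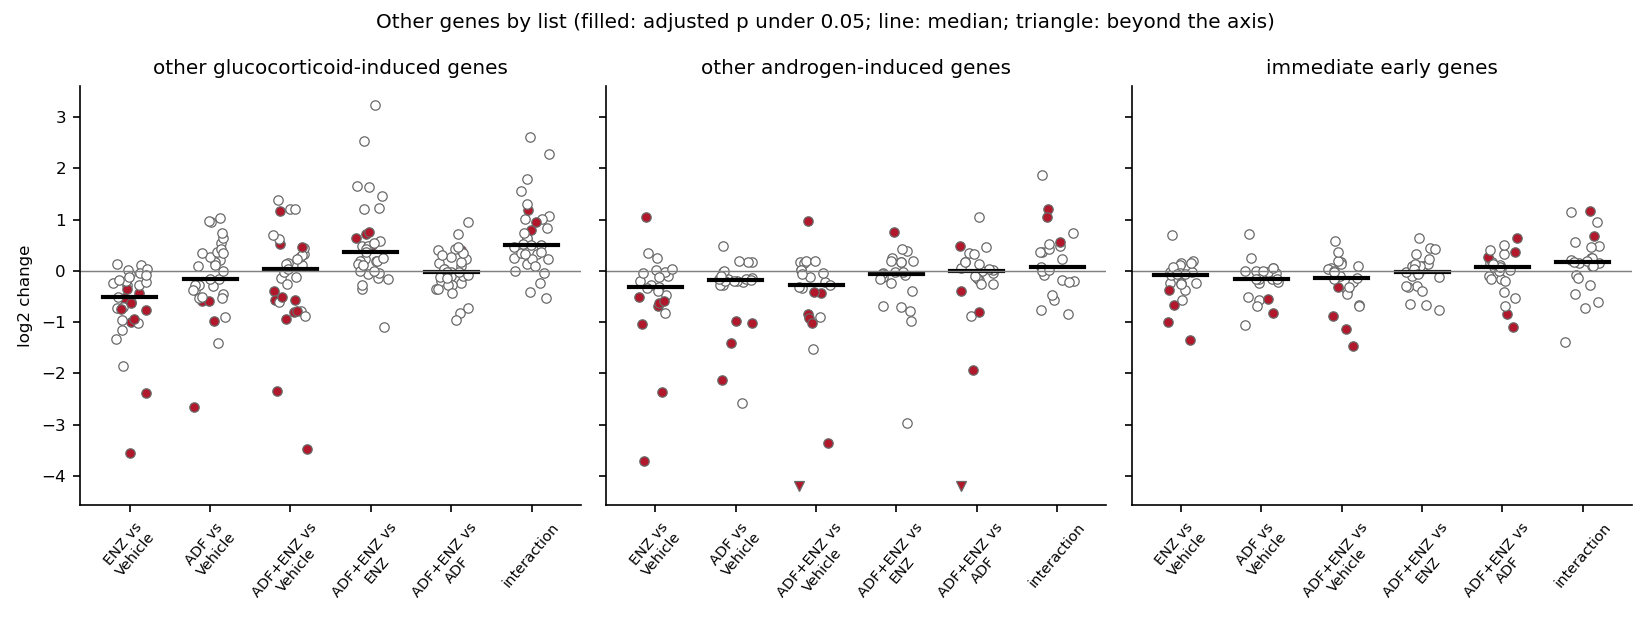
Log2 change (y axis) of the other glucocorticoid-induced (33 tested), other androgen-induced (23) and immediate early genes (23) in each comparison; filled points passed edgeR's adjusted p under 0.05, the line is the median, and triangles lie beyond the axis. The medians of the glucocorticoid-induced genes are -0.50 in ENZ against Vehicle and 0.36 in ADF+ENZ against ENZ, those of the androgen-induced genes -0.31 and -0.07.

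Dusp1 is known to be quickly induced by stress, and whether stress or handling had a part in its values was not tested. Immediate early genes, which respond to handling and to growth signals, were read beside it. Of 23 tested by edgeR, 0 rose in ADF+ENZ against Vehicle, where Dusp1 rose (2 were higher at an unadjusted p under 0.05), and 4 fell: Fos (log2 -1.46), Egr1 (-1.13), Egr2 (-0.88) and Junb (-0.32). Relative to ADF, 3 rose in ADF+ENZ, Maff (0.64), Ier2 (0.36) and Ier5 (0.26), and 2 fell, Egr1 (-1.10) and Egr2 (-0.83). In ENZ against Vehicle 4 fell, Fos (-1.36), Fosb (-0.9996), Klf4 (-0.66) and Klf6 (-0.38), and in ADF against Vehicle 2 fell, Fosb (-0.82) and Maff (-0.55). In ADF+ENZ against ENZ 0 passed (3 were higher and 4 lower at an unadjusted p under 0.05). The summed level of the 23 found was 1074 to 1303 CPM in ADF+ENZ, 994 to 1196 CPM in ADF, 988 to 1196 CPM in ENZ and 1134 to 1309 CPM in Vehicle.

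Markers of the tumour cells and of other cells were read beside these results. Luminal keratins were present, with Krt8 at 456, 484, 471 and 594 CPM in ADF+ENZ, ADF, ENZ and Vehicle, but the defining prostate marker Pbsn had 0 counts in all groups, which allows up to 0.0443 to 0.0535 CPM (3 counts over a group, counting error only). Of the 8 luminal markers, 3 passed the filter. Mesenchymal markers had their lowest mean sum in ENZ, where Fkbp5 and Zbtb16 also had their lowest means: the 7 summed to 11219 to 14726 CPM in ADF+ENZ, 8685 to 12780 CPM in ADF, 7660 to 9172 CPM in ENZ and 11979 to 17580 CPM in Vehicle. Between ENZ and Vehicle the exact two-sided permutation p was 0.0286 (adjusted p = 0.102 over 25 lists), and between ADF+ENZ and ENZ it was also 0.0286 (0.143). The sum does not describe every marker: 5 were lower and 2 higher in ENZ than in Vehicle (median log2 -0.26). In ADF+ENZ against ENZ 4 were higher and 3 lower (median 0.02). Of the 7, Fn1, the fibronectin gene, passed, at log2 -1.06 in ENZ against Vehicle, at 0.89 in ADF+ENZ compared with ENZ and with an interaction of 1.36, and the other 6 did not; none was at 0. The 8 fibroblast markers summed to 11429 to 13390 CPM in ADF+ENZ, 8863 to 12513 CPM in ADF, 9377 to 10387 CPM in ENZ and 10928 to 12734 CPM in Vehicle, with none at 0; only Pdgfra passed in ADF+ENZ against ENZ (0.72) and none in ENZ against Vehicle. Their mean sum was also lowest in ENZ, and the exact two-sided permutation p was 0.0286 both against Vehicle (adjusted p = 0.102) and between ADF+ENZ and ENZ (0.143). By gene, 5 of the 8 were lower and 3 higher in ENZ than in Vehicle (median log2 -0.13). In ADF+ENZ against ENZ 6 were higher and 2 lower (median 0.31). The part of these cells or states in the results on Fkbp5, Zbtb16 and Klf9 was not tested. T and NK cell markers were scarce in every library, with 2.88 to 20.3 CPM for all 8 together. Lymphocytes are known to hold much Tsc22d3 RNA.

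The genes whose levels ran most like those of Fkbp5 and Zbtb16 over the 16 libraries were sought among 16051 genes with a symbol and a mean of at least 1 CPM, by Pearson's r of log2 CPM. For Fkbp5 they were Cblb (r = 0.94, Spearman's rho 0.96), Usp54 (0.91), Ecm1 (0.91), Tmem106b (0.90) and the unnamed transcript AC138228.3 (0.89). Cblb, which encodes a ubiquitin ligase that damps receptor signalling, averaged 65.7, 55.8, 44.8 and 72.7 CPM in ADF+ENZ, ADF, ENZ and Vehicle. For Zbtb16 they were Prune2 (0.89), Cox4i2 (0.89), Kif17 (0.89), Tent5b (0.89) and Cgref1 (0.87), and Prune2 averaged 286, 362, 189.5 and 365 CPM in ADF+ENZ, ADF, ENZ and Vehicle. These r are descriptions over libraries of 4 groups that differ in level, and carry no p.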

How the data were processed

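The authors deposited a table of raw counts per gene for 16 libraries; per the submitters' processing notes, the tools were featureCounts, HISAT2, Trim Galore and DESeq2 and the builds mm39 and GRCh38. Versions, roles and the strand setting are not stated there. The 5 summary rows of the table were kept out of library sizes and tests. Gene names were matched for 52081 of 55414 IDs, and the unmatched IDs made up 3.51% of gene counts.

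One edgeR 4.0.16 quasi-likelihood fit (R 4.3.3, robust, TMM scaling) covered all 16 libraries and 4 groups, after a filter of 10 counts in enough libraries and 15 in all, which left 18946 genes. Benjamini-Hochberg adjustment ran over all genes within each comparison, with a threshold of 0.05. Summed lists and library measures were compared by exact two-sided permutation over 70 assignments. DESeq2 1.42.0, limma 3.58.1 (voom with quality weights), DESeq2's size factors, no filter, a filter of 1 CPM in 4 libraries, protein-coding genes only, a covariate, the 2 groups alone and leaving out each library were alternatives. CPM below a few counts are not informative, and more deeply counted genes have smaller counting error.

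Other genes were named by rule: up to 4 per list, direction and comparison that passed with the smallest p and a mean of at least 1 CPM, and 5 by likeness. Exceptions, chosen after their values were seen, are Ergic1 and Spidr, and genes described for their role (Nr3c1, Nr3c2, Esr2, Pgr, Fkbp4, Sgk2, Sgk3, the markers). A few further genes are not reported here. The 8 genes and the lists were chosen with earlier results of these data known.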

Additional observations from a re-analysis of the deposited data

Results flagged for a closer look

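Of 32 gene and group combinations, each of 4 libraries, 2 held a library far from the others by Dixon's 95% criterion on the gap to the nearest library over the range, which chance meets in about 1 of 20 groups. Fkbp5 in Vehicle replicate 1 was the lowest of its group at 306 CPM (gap over range 0.847), and Sgk1 in ADF replicate 1 the highest of its group at 286 CPM (0.896).

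The effect of fasting differed with and without enzalutamide for 3 of the 8 genes by edgeR's test of the interaction, at log2 1.79 for Fkbp5, 2.51 for Zbtb16 and 1.31 for Klf9. For Fkbp5 the change was 1.06 in ADF+ENZ against ENZ and -0.73 in ADF against Vehicle, for Zbtb16 2.03 and -0.48, and for Klf9 0.80 and -0.51.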

How the results depend on the processing

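Of the settings tried, 729 values kept their direction and side of the threshold, 69 lost and 48 gained a call or count and 26 changed sign, all 26 in changes that did not pass. The cause of these moves was not tested. No paired analysis was possible because replicate numbers were given in accession order and the titles carry a different number for each sample, whose meaning is not stated.

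Of the 8 genes, 3 changed in ENZ against Vehicle, and 5 did by DESeq2, 5 by limma-voom and 6 without both ADF replicate 1 and ENZ replicate 1 (chosen after seeing the data). For ADF against Vehicle the count was 2, and 4 by limma-voom, 0 without a filter, 0 with the share of unassigned reads as a covariate, 5 without both libraries and 0 to 5 with 1 library left out. For ADF+ENZ against Vehicle it was 2 and stayed within 1.5 times. For ADF+ENZ against ENZ it was 4, and 2 without a filter, 0 with the covariate, 2 in a fit of the 2 groups alone and 0 to 4 with 1 left out. For ADF+ENZ against ADF it was 2, and 5 by limma-voom, 0 with the covariate, 5 without both and 2 to 4 with 1 left out. For the interaction it was 3, and 6 by limma-voom, 0 with the covariate, 6 without both and 2 to 5 with 1 left out.

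Sign changes (log2) were as follows. With the covariate, Tsc22d3 and Sgk1 were 0.0436 and 0.10 in ADF against Vehicle, Sgk1 -0.13 in ADF+ENZ against Vehicle, and Zbtb16 0.34, Sgk1 -0.23, Errfi1 -0.13 and Cebpd 0.13 in ADF+ENZ against ADF. By limma-voom, Dusp1 was -0.0105 in ADF against Vehicle, Sgk1 -0.0531 in ADF+ENZ against Vehicle, Cebpd 0.17 in ADF+ENZ against ENZ and Zbtb16 0.0516 in ADF+ENZ against ADF. Without a filter, Dusp1 was -0.0196 in ADF against Vehicle. Without both libraries, Dusp1 was -0.10 in ADF against Vehicle, Cebpd 0.27 in ADF+ENZ against ENZ and Zbtb16 0.23 in ADF+ENZ against ADF. With 1 library left out, the ranges were -0.39 to 0.10 for Tsc22d3 and -0.10 to 0.11 for Dusp1 in ADF against Vehicle, -0.14 to 0.12 for Sgk1 in ADF+ENZ against Vehicle, -0.0486 to 0.23 for Errfi1 and -0.33 to 0.27 for Cebpd in ADF+ENZ against ENZ, and -0.36 to 0.23 for Zbtb16 in ADF+ENZ against ADF.

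Over all genes, 1028 (5.43%) passed in ENZ against Vehicle, and 1594 (8.41%) by DESeq2, 1680 (8.87%) by limma-voom, 1300 (6.79%) without both libraries and 403 (2.09%) without ENZ replicate 3. Between ADF+ENZ and ENZ 206 (1.09%) passed, and 693 (3.66%) by DESeq2, 0.607% without a filter, 0.227% with the covariate and 54 (0.311%) in the 2 groups alone. With 1 library left out, 20 (0.103%, without ADF+ENZ replicate 3) to 358 (1.85%, without ADF+ENZ replicate 2) passed. Between ADF and Vehicle 1707 (9.01%) passed, and 12.4% by limma-voom, 4.07% without a filter, 6 genes (0.0317%) with the covariate and 8.46% without both libraries. With 1 library left out, 3.17% (without ADF replicate 4) to 9.66% (without Vehicle replicate 1) passed. Between ADF+ENZ and ADF 16.3% of all genes passed, and 23.7% by limma-voom, 0 genes with the covariate and 19.4% without both libraries. With 1 library left out, 6.22% (without ADF replicate 4) to 17.7% (without ADF replicate 1) passed. For the interaction 587 (3.1%) passed, and 1363 by DESeq2, 4.6% by limma-voom, 0 genes with the covariate and 2.85% without both. With 1 library left out, 148 (0.769%, without ADF replicate 4) to 908 (4.7%, without ADF+ENZ replicate 2) passed.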
